A study of Mus musculus with 8 samples.

Results

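The regions described here were open in cultured mouse satellite cells, remained open when the long noncoding RNA LncMyod was knocked down, and carried no peak in satellite cells taken directly from muscle. Open chromatin was mapped by ATAC-seq, in which the Tn5 transposase inserts adapters into accessible DNA, in 8 libraries of 4 groups of 2. All libraries came from hindlimb muscle of C57BL/6 mice. The LncMyod Knockdown cells were cultured for differentiation with an siRNA against LncMyod for 48 h, the LncMyod Control cells were cultured for differentiation with a control siRNA, ASC were isolated 2.5 days after injury, and QSC were freshly isolated. Peaks of the 8 deposited lists on chromosomes 1 to 19 were merged where they overlapped, which gave 139157 regions. A region was a member when both LncMyod Knockdown and both LncMyod Control libraries had a peak on it and no ASC or QSC library did, and 6663 regions (4.79%) met this rule. Presence or absence of a peak in each group therefore chose the members and is not a result. Culture, siRNA treatment, differentiation and injury cannot be told apart in the contrast behind the rule. Nothing in the labels says that the 2 libraries of a group are from different animals or cultures. The p-values below therefore reflect the spread between libraries alone, and that spread may be technical.

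Satellite cells are the stem cells of skeletal muscle and carry the transcription factor Pax7 while quiescent. After injury or in culture they express MyoD, a basic helix-loop-helix factor that binds E-boxes (CANNTG, often with the centre CAGCTG) as a dimer with an E protein, and then switch on myogenin, MEF2 factors and the genes of the contractile apparatus. MEF2 factors bind an A/T-rich site, and serum response factor binds the CArG box found at actin genes. LncMyod is transcribed from the neighbourhood of Myod1, the MyoD gene, and is itself a target of MyoD in differentiating myoblasts. The peak lists hold no RNA measurement, so the level of LncMyod after the siRNA was not analysed here.

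A total of 104 members reached a transcription start window, and the starts of muscle structural genes were among them. The windows reached belong to 106 genes, of which 42 are protein-coding, and the share of muscle genes was not worked out. Of these windows, 6 are shown because they carry the matches discussed below, at genes of the thin filament (Acta1 and Actc1), the Z-disc and its attachments (Csrp3 and Xirp2), mitochondrial respiration (Cox8b) and sarcomere proteolysis (Capn3). The windows run from 250 bases before to 50 after a start, are from RefSeq on GRCm38.p6, the assembly that mm10 names, and read 5′ to 3′ on the strand of the gene. Capitals mark E-boxes (CANNTG), the MEF2 frame (CTA and TAG separated by 4 bases) and CArG boxes (CC and GG separated by 6 bases that are A or T), and adjoining capitals can hold overlapping matches.
Acta1 promoter (chr8:123894726-123895025, minus strand): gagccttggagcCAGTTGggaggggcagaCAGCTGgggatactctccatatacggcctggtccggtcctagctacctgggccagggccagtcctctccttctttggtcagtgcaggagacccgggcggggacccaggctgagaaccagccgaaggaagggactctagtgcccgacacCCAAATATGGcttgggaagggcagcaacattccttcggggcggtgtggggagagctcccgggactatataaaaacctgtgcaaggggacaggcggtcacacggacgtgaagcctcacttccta
Actc1 promoter (chr2:114052826-114053125, minus strand): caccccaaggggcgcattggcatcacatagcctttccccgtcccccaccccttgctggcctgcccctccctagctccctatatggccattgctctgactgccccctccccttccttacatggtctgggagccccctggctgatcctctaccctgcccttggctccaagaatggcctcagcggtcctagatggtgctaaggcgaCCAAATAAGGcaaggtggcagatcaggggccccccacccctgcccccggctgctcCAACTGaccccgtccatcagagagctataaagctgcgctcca
Csrp3 promoter (chr7:48848002-48848301, minus strand): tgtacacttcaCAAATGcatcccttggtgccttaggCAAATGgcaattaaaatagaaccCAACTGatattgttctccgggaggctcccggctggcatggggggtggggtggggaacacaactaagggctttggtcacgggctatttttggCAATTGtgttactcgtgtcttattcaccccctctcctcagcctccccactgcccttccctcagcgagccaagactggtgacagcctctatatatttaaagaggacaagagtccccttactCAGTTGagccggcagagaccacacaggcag
Xirp2 promoter (chr2:67445752-67446051, plus strand): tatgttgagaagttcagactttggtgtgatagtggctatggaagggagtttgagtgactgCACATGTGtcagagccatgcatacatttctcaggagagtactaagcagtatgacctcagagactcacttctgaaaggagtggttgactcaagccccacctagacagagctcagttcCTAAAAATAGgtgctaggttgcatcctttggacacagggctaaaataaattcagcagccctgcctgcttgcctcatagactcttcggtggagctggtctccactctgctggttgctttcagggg
Cox8b promoter (chr7:140900397-140900696, minus strand): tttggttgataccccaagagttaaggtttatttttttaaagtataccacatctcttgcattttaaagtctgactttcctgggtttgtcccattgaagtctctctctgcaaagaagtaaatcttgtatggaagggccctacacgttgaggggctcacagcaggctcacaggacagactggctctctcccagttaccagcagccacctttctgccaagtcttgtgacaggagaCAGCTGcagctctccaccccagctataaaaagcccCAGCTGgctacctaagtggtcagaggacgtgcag
Capn3 promoter (chr2:120463343-120463642, plus strand): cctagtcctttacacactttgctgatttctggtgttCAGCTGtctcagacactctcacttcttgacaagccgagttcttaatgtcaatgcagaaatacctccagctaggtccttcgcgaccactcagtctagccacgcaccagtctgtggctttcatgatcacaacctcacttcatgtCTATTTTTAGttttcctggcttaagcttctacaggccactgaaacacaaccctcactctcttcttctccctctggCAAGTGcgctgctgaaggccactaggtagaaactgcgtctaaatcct

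The Acta1 and Actc1 windows, from the skeletal and cardiac alpha-actin genes, each held 1 CArG box, and Acta1 also held 1 CAGCTG E-box. Csrp3, which encodes the muscle LIM protein of the Z-disc, held 5 E-boxes and none with the centre CAGCTG. The Cox8b window, from the gene of a muscle-type subunit of cytochrome c oxidase, held 2 CAGCTG E-boxes near its start. Xirp2, which encodes an actin-binding Xin-repeat protein, and Capn3, which encodes the muscle calpain, each held an exact MEF2 site. All 6 windows lay wholly inside a member.

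Of the 115 windows reached by members, which belong to 106 genes, 43 held CAGCTG on either strand, a share of 37.4% (Wilson 95% interval 29.1 to 46.5%). All 31396 windows of the table held it in 16.3% of cases, and windows reached by regions held in all 8 libraries in 16.0%. Among the 46 member windows of 42 protein-coding genes the share was 52.2%, beside 15.6% of all protein-coding windows. Any E-box (CANNTG, which includes CAGCTG and CAGGTG) was present in 87.8% of member windows and 72.2% of all windows. CAGGTG was present in 23.5% of member windows and 20.5% of all windows, which lies closer together than for CAGCTG. Several windows belong to 1 gene and overlap, and with 1 window per gene the CAGCTG share was 35.8%.

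Motifs of other muscle factors were also counted. The MEF2 frame was present in 7.83% of member windows and 3.73% of all windows, and the exact MEF2 site with only A or T inside was present in 3.48% and 0.567%. The 4 windows behind the first of these last shares were those of Capn3, Xirp2 and a pair at Smim22. The loose CArG frame, CC and GG around any 6 bases, occurred in 72.2% of member windows and 73.7% of all windows, and the CArG box itself in 3.48% and 1.57%. The TEAD motif GGAATG was found in 20.9% of member windows and 14.6% of all, the RUNX motif TGTGGTT in 9.57% and 5.32%, the MEF3 motif TCANGTTTC, in 2.61% and 1.10%, and the AP-1 motif TGANTCA in 6.09% and 7.84%. Member windows had a median GC content of 50.7% and a median of 4 CpG dinucleotides. All windows had 53.0% and 7, and windows reached by regions held in all 8 libraries had 62.0% and 22. Base composition differed between these sets of windows, and its part in the motif shares was not tested. The CAGCTG shares given above are likewise not from windows matched for base composition. A match describes the letters in the window and does not show that a factor was bound.

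At the starts of genes of the contractile apparatus, members were covered to a similar length in all 4 cultured libraries for some genes and unevenly for others. Covered length is the number of bp of a region that lie under a library's peaks, given here for single regions without scaling. Log2 differences, LncMyod Knockdown minus LncMyod Control, were taken after each library was scaled to the same total, which multiplied LncMyod Knockdown replicates 1 and 2 by 0.849 and 1.09 and both LncMyod Control libraries by 1.04. The member over the Acta1 start (chr8:123894533-123896413) was covered over 1738 and 1729 bp in LncMyod Knockdown replicates 1 and 2 and over 1751 and 1783 bp in LncMyod Control replicates 1 and 2. The Actc1 member (chr2:114052672-114053413) was covered over 678 and 589 bp in LncMyod Knockdown and 720 and 742 bp in LncMyod Control. Both LncMyod Knockdown libraries were below both LncMyod Control libraries at these 2 starts, and after scaling this held at Actc1 but not at Acta1 (1475 and 1885 bp in LncMyod Knockdown, 1820 and 1855 bp in LncMyod Control).

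At the start of Tnni1, the slow skeletal troponin I gene (member at chr1:135798521-135799728), the covered lengths were 970 and 1100 bp in LncMyod Knockdown and 1040 and 914 bp in LncMyod Control, and the groups overlapped. Mylpf, which encodes the regulatory light chain of fast skeletal myosin (member at chr7:127210326-127211614), had 1289 and 335 bp in LncMyod Knockdown and 403 and 438 bp in LncMyod Control. There the 2 LncMyod Knockdown libraries lay on opposite sides of the LncMyod Control libraries. The Csrp3 member (chr7:48847806-48848631) had 669 and 507 bp in LncMyod Knockdown and 826 and 714 bp in LncMyod Control. These Csrp3 groups did not overlap, and the log2 difference was −0.39 (SE 0.12, unadjusted p = 0.0371, adjusted p = 0.489 by limma over all regions). The Xirp2 member (chr2:67445713-67446130) had 353 and 270 bp in LncMyod Knockdown and 384 and 335 bp in LncMyod Control, and those groups overlapped without scaling only.

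Among genes of calcium handling and energy supply, Casq2, which encodes the calcium-storing calsequestrin of the sarcoplasmic reticulum (member at chr3:102085367-102086621), had 1255 and 736 bp in LncMyod Knockdown and 769 and 749 bp in LncMyod Control. Mb, the myoglobin gene (member at chr15:77022472-77023091), had 584 and 401 bp in LncMyod Knockdown and 505 and 545 bp in LncMyod Control. Cox8b (member at chr7:140900094-140901802) had 521 and 1580 bp in LncMyod Knockdown and 530 and 1040 bp in LncMyod Control. The groups overlapped at all 3 starts, and after scaling they still did at Cox8b, while both LncMyod Knockdown libraries were above LncMyod Control at Casq2 and below it at Mb. The widest Cox8b peak came from LncMyod Knockdown replicate 2, whereas at Casq2 and Mb the widest came from LncMyod Knockdown replicate 1.

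Other muscle genes with a member over a start were named after their values were seen. They were Capn3, the ubiquitin ligase genes Trim63 and Asb2, the myosin chaperone gene Unc45b and the muscle membrane protein gene Tmem182. At Capn3 (member at chr2:120462555-120463678) the covered length was 1108 and 406 bp in LncMyod Knockdown and 1017 and 1108 bp in LncMyod Control, so that LncMyod Knockdown replicate 2 stood below the other 3 libraries (log2 difference −0.61, SE 0.33, adjusted p = 0.786). Tmem182 (member at chr1:40805326-40805797) had 417 and 344 bp in LncMyod Knockdown and 424 and 446 bp in LncMyod Control, with authors' fold enrichments of 7.57 and 4.59 in LncMyod Knockdown and 7.84 and 6.05 in LncMyod Control. Its percentiles of −log10 q were 85.8 and 66.6 in the LncMyod Knockdown lists and 82.0 and 72.2 in the LncMyod Control lists. None of the members over these muscle gene starts had an adjusted p under 0.05 between LncMyod Knockdown and LncMyod Control, and the lowest adjusted p among them was the 0.489 of Csrp3.

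**Figure D1:**
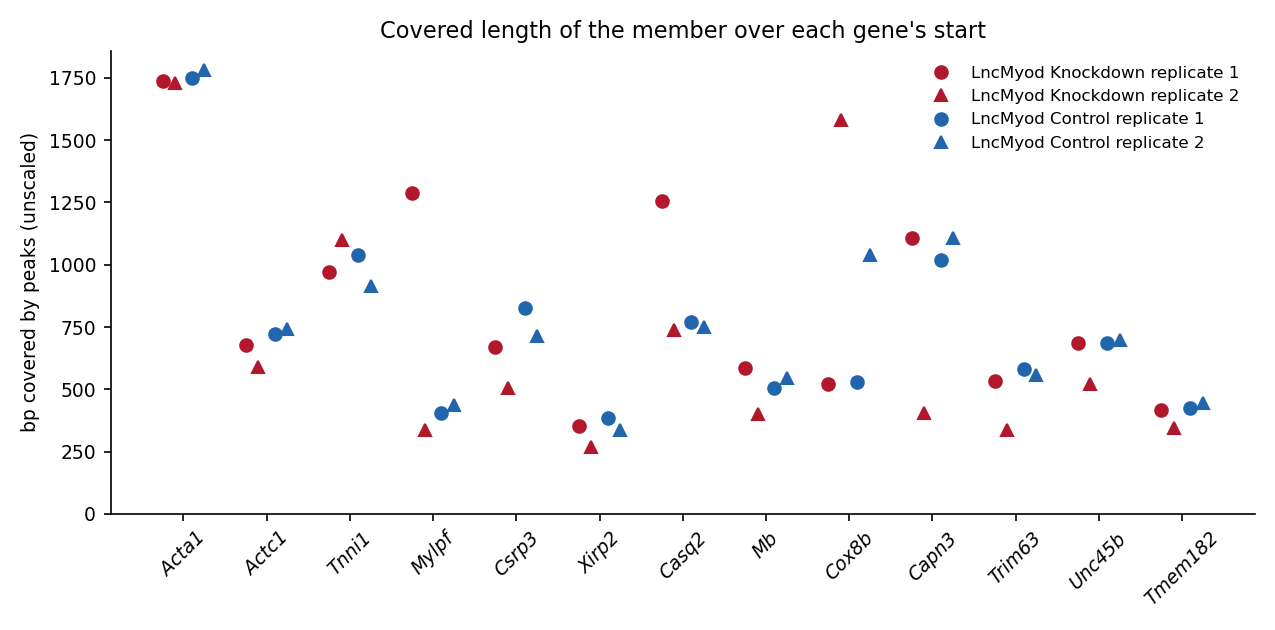
Covered length in bp, without scaling, of the member over the start of each of 13 muscle genes, with 1 point per library (red, LncMyod Knockdown; blue, LncMyod Control; circles, replicate 1; triangles, replicate 2). The 4 points nearly coincide at Acta1, between 1729 and 1783 bp, and spread most at Mylpf and Cox8b, where a LncMyod Knockdown library is the widest.

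Most members lay far from transcription starts. Of 6433 members on the 18 chromosomes with start entries, 187 (2.91%, Wilson 95% interval 2.52 to 3.35%) lay within 1 kb of a start, 22.1% at 1 to 10 kb, 43.7% at 10 to 50 kb and 31.3% farther away. The median distance was 25.7 kb, with quartiles of 9.98 and 63.3 kb. A gene body held 62.1% of members, and exons and introns were not told apart here. The median member was 545 bp wide, with quartiles of 407 and 822 bp.

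The same measures were taken on 4 other sets of regions, none of which shares a region with the members. Regions that both LncMyod Control libraries but no LncMyod Knockdown, ASC or QSC library held (1146) were within 1 kb of a start in 3.22% of cases, and regions that only the 2 LncMyod Knockdown libraries held (1783) in 4.88%. Regions that both ASC and all cultured libraries but no QSC library held (4508) were within 1 kb of a start in 5.09% of cases. The share was 32.7% for the 34676 regions held by all 8 libraries and 11.4% for all merged regions. Median widths were 313, 708, 772, 1136 and 649 bp in the same order of sets. Median distances were 23.1, 20.4, 21.8, 9.96 and 20.1 kb in that order.

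**Figure D2:**
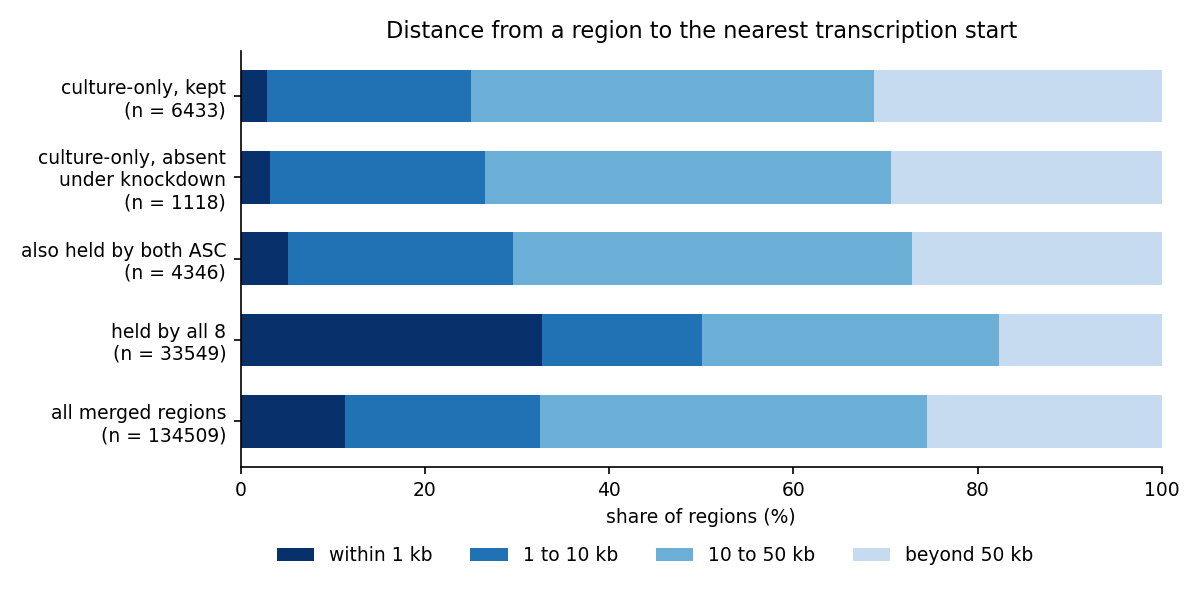
Share of regions, in percent, by distance to the nearest transcription start, for the culture-only regions kept under knockdown, for 3 other sets and for all merged regions, with the number of regions on the 18 chromosomes that have start entries. Members (2.91%) and culture-only regions absent under knockdown (3.22%) have similar, small shares within 1 kb. Regions held by all 8 libraries have the largest (32.7%).

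Members were spread over all 19 chromosomes and made up between 4.09% of the regions on chromosome 10 and 5.91% of those on chromosome 14. The median member lay 63.7 kb from the next one. At gaps of at most 20 kb, 1562 members (23.4%) lay in 727 runs, of which 87 held 3 or more. The 2 runs with the most held 5 members each. On chromosome 13 (chr13:24374829-24416751) 5 of 7 merged regions across Cmah, a gene of sialic acid metabolism, and Gm11342 were members. On chromosome 14 (chr14:31509981-31550548) 5 of 8 merged regions at Colq were members. Colq encodes the collagen tail that anchors acetylcholinesterase at the neuromuscular junction. A further run on chromosome 1 (chr1:88968117-89011847) at the noncoding gene Gm34194 consisted of 4 regions, all of them members.

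Peak strength was compared within each library's own list, as the percentile of the strongest peak in a region by the authors' −log10 q. The median member had a percentile of 52.6 and 41.4 in LncMyod Knockdown replicates 1 and 2 and of 47.2 and 45.8 in LncMyod Control replicates 1 and 2, near the middle of each list. The authors' median fold enrichments on members were 3.64 and 3.11 in LncMyod Knockdown and 4.30 and 3.93 in LncMyod Control. Regions shared with both ASC libraries stood higher in every cultured library, at 62.2 and 53.5 in LncMyod Knockdown and 53.4 and 53.8 in LncMyod Control. Regions held by all 8 libraries stood at 78.6 and 75.1 in LncMyod Knockdown and 75.0 and 74.5 in LncMyod Control. Culture-only regions with no LncMyod Knockdown peak stood at 17.3 and 17.1 in LncMyod Control. The sets were defined by peak presence, which peak strength can decide, so these values are a description.

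**Figure D3:**
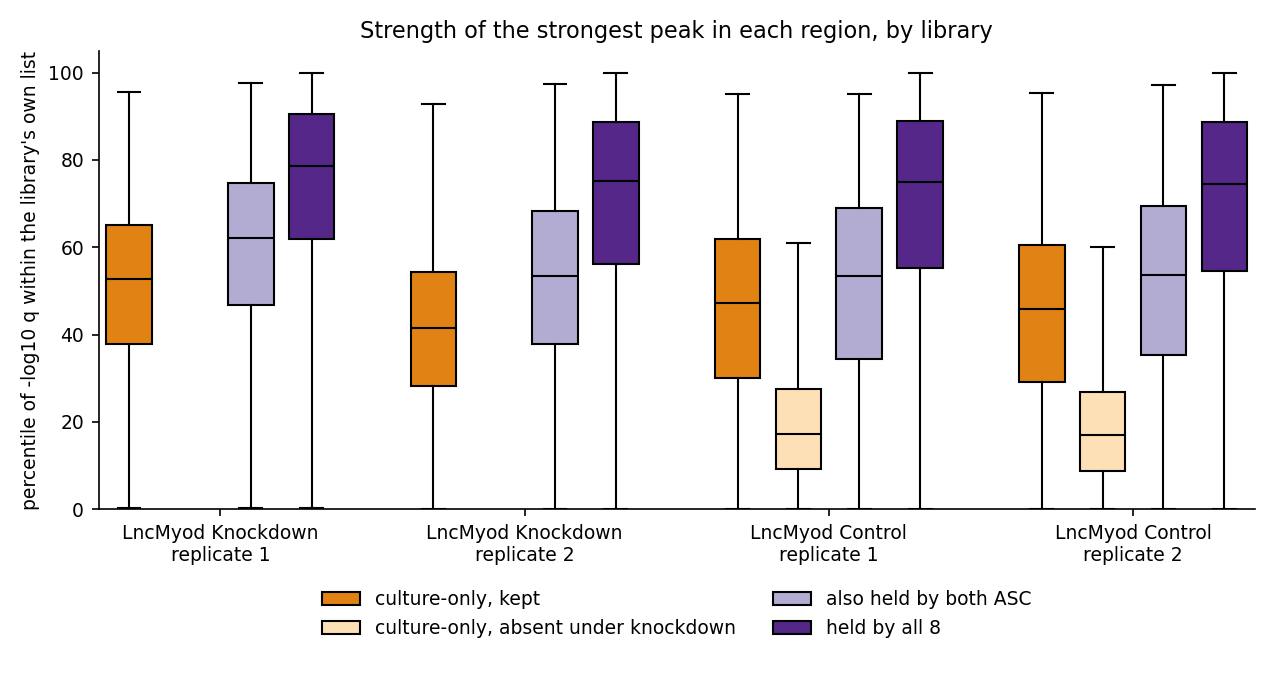
Percentile of −log10 q of the strongest peak in each region, within the list of each of the 4 cultured libraries, for 4 sets of regions; boxes span the quartiles with the median as a line, and whiskers reach the lowest and highest region. Member medians lie between 41.4 and 52.6, below the regions also held by both ASC libraries (53.4 to 62.2) and those held by all 8 libraries (74.5 to 78.6); the set absent under knockdown has no boxes in LncMyod Knockdown.

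LncMyod Knockdown replicate 2 bounded the membership. It gave the weakest of the 4 peaks, by −log10 q, in 5229 members (78.5%). A −log10 q of at least 5 was reached by 70.0% and 33.5% of members in LncMyod Knockdown and by 75.0% and 69.4% in LncMyod Control. Just outside the rule lay 5384 regions held by 3 cultured libraries and no ASC or QSC library, of which 4044 were missed by LncMyod Knockdown replicate 2 alone. Without this library 10734 regions would be members. Another 3756 regions were held by all 4 cultured libraries and by 1 ASC or QSC library, most often ASC replicate 1 (2246). The lowest −log10 q over the cultured libraries had a median of 3.61 on members, 2.84 on the regions with 3 cultured libraries and 3.95 on those with 1 ASC or QSC library. All 4 peaks reached a −log10 q of 5 on 1993 members.

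The 10 strongest members, ranked by the lowest of their 4 percentiles, lay inside or between genes of varied function and away from starts. The first was inside Smpdl3b, which encodes a sphingomyelin phosphodiesterase-like protein (chr4:132748640-132749166), with authors' folds of 8.43 and 6.85 in LncMyod Knockdown and 9.02 and 8.91 in LncMyod Control. The next lay inside the membrane protein gene Tmem108 (chr9:103709673-103710138), with folds of 9.32 and 7.32 in LncMyod Knockdown and 11.2 and 9.84 in LncMyod Control. LncMyod Knockdown replicate 2 had the lowest fold of the 4 libraries at both. One inside Cpt1a, the gene of the carnitine palmitoyltransferase of fatty acid oxidation (chr19:3336822-3337308), had folds of 5.48 and 5.32 in LncMyod Knockdown and 7.09 and 6.07 in LncMyod Control. Mrc1, which encodes the mannose receptor best known from macrophages, contained one (chr2:14312406-14313224) with folds of 8.45 and 8.32 in LncMyod Knockdown and 9.01 and 10.4 in LncMyod Control.

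The other 6 of the strongest members lay inside the noncoding genes Gm30504 and Gm13986, inside Endov (an endonuclease gene), 3744 bp from Gm26535, 25754 bp from Sh2d6 and 39764 bp from Dleu7. Over all 10, the lowest percentile ran from 88.1 to 92.0. Their distances to the nearest start ran from 4485 bp at Endov to 75174 bp at Mrc1. The log2 differences between LncMyod Knockdown and LncMyod Control ran from −0.34 (Gm13986) to 0.10 (near Sh2d6), with adjusted p of 0.598 or more.

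By gene, 5173 of 33069 loci (15.6%) held at least 1 member, where a locus is the gene extended by 10 kb at each end, and 323 held 3 or more. The 12 protein-coding genes with the most members were between 215 and 1528 kb long. Covered length per locus is given after scaling each library to the same total. Sorcs2, which encodes a VPS10-domain receptor, held 11 members among 77 regions, and its locus was covered over 34.2 and 28.5 kb in LncMyod Knockdown, 31.9 and 31.9 kb in LncMyod Control, 18.2 and 22.5 kb in ASC, and 16.4 and 13.9 kb in QSC. Cdh13, the T-cadherin gene, held 11 among 125 regions, with 38.2 and 36.3 kb in LncMyod Knockdown, 33.7 and 34.4 kb in LncMyod Control, 31.8 and 29.7 kb in ASC, and 40.9 and 36.6 kb in QSC. Sorcs2 had more covered length in every cultured library than in any isolated one, while the QSC libraries at Cdh13 were within or above the cultured range. These genes were ranked by their members, which have peaks in culture and none in ASC or QSC. The excess in culture at Sorcs2 is therefore partly set by the rule.

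Cpne4, which encodes a calcium-binding copine, differed from Sorcs2 and Cdh13 in that 8 of its 13 regions (61.5%) were members. Its locus (chr9:104566701-105034544 for the gene body) was covered over 4.07 and 4.35 kb in LncMyod Knockdown, 3.93 and 5.42 kb in LncMyod Control, 0.340 and 0.354 kb in ASC, and 0.207 and 0.245 kb in QSC. With most of its regions members, the excess in culture at Cpne4 is also partly set by the rule. Snx29, a sorting nexin gene, held 10 members among 73 regions, and Rbfox1, which encodes a splicing regulator of muscle and neurons, held 8 among 52. The other 7 genes held 7 each. They included Grin2a (an NMDA receptor subunit), Eif4g3 (a translation initiation factor), Slco3a1 (an organic anion transporter), Cacna2d3 (a calcium channel subunit), Shroom3 (an actin-binding protein) and Fam189a1. Between LncMyod Knockdown and LncMyod Control the log2 differences of these 12 loci ran from −0.22 (Fam189a1) to 0.23 (Grin2a), each with an adjusted p of 0.726 or more by limma.

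The 20 gene lists differed in how many of the regions in their loci were members, beside 4.79% of all regions. The lists were chosen with earlier results of these data known, and their shares are a description. A region with a peak in any ASC or QSC library counts among the regions but cannot be a member. Lists with many such regions therefore have a lower share by the rule. Members made up 10.1% of regions (14 of 138) at genes of muscle energy metabolism and 9.68% (6 of 62) at leukocyte markers. Next came genes of the dystrophin complex with 7.83% (13 of 166). Transcription factors of myogenesis had 7.66% (16 of 209), contractile and sarcomere genes 6.98% (30 of 430), and fusion and membrane genes 6.91% (23 of 333). The share was 6.32% for Igf and Hmga2 genes, 5.73% for the neuromuscular junction, 5.62% for excitation-contraction coupling and 4.96% for Notch genes. It was below 4.79% for cell cycle genes (3.60%), matrix and integrin genes (2.88%) and genes known from quiescent satellite cells (2.08%, 12 of 576). Endothelial (3.15%), fibroadipogenic (1.92%), glial (1.54%) and adipogenic (1.0%) lists were also below it, and mural and hepatocyte loci held no member. No member lay at any of the 20 AP-1 and immediate early genes, whose loci held 90 regions.

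**Figure D4:**
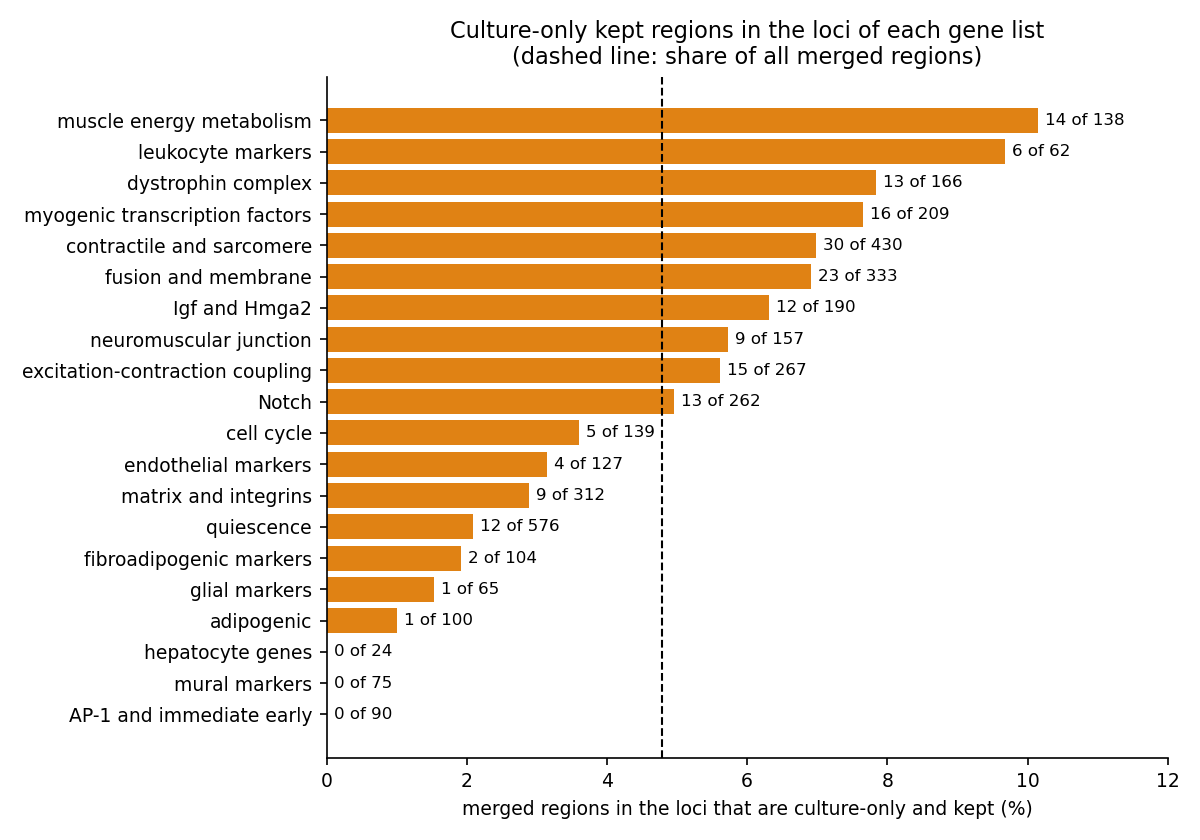
Share of merged regions in the loci of each gene list that are culture-only regions kept under knockdown, in percent, with the number of members and of regions beside each bar; the dashed line is the share over all merged regions, 4.79%. Lists of muscle structure and metabolism lie above the line (5.62 to 10.1%), the lowest of them, excitation-contraction coupling (15 of 267), near it. Leukocyte markers (6 of 62), Igf and Hmga2 genes (6.32%) and Notch genes (4.96%) also lie above it. Quiescence, adipogenic and fibroadipogenic genes are among those below it.

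Counts of genes per list, here and below, stand beside 15.6% of all loci and 17.8% of protein-coding loci that held a member. Of protein-coding loci with any merged region, 21.0% did. Gene length was not matched, and a gene count need not follow the share of regions. In the quiescence list 27.6% of genes held a member, with 2.08% of regions members. Among transcription factors of myogenesis, 10 of 17 genes held a member. Tcf12, which encodes an E protein partner of MyoD, held 3, and Mef2a, Mef2c, the TEAD factor gene Tead4 and the transcriptional cofactor gene Eya1 held 2 each. Pax3, Myod1, Myog, Six4 and Tead1 held 1 each. The Myod1 member (chr7:46370922-46371528) lay 4946 bp outside the gene, over a start of the noncoding gene Gm45923, and was covered over 502 and 445 bp in LncMyod Knockdown and 488 and 593 bp in LncMyod Control. These groups overlapped without scaling only, and the log2 difference was −0.21 (SE 0.15, adjusted p = 0.786). The Myog member, at the myogenin gene (chr1:134292874-134294929), had 1880 and 778 bp in LncMyod Knockdown and 1543 and 1472 bp in LncMyod Control. It was weak, with percentiles of 25.2 and 7.11 in LncMyod Knockdown and 13.7 and 13.9 in LncMyod Control.

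Fusion and membrane genes held members at 10 of 18 loci. Dysf, which encodes the membrane repair protein dysferlin, held 6 of its 40 regions, all inside the gene and from 3249 bp to 169118 bp from the nearest start. The last of these (chr6:84188504-84189183) was the strongest, with percentiles of 77.9 and 71.3 in LncMyod Knockdown and 82.0 and 84.1 in LncMyod Control. Its covered length was 645 and 471 bp in LncMyod Knockdown and 548 and 536 bp in LncMyod Control, and the groups overlapped without scaling only (log2 difference −0.06, adjusted p = 0.885). The adhesion genes Ncam1 and Kirrel3 held 3 each. Mymk, the gene of the fusion protein myomaker, held 1 (chr2:27056024-27056766), covered over 574 and 229 bp in LncMyod Knockdown and 581 and 687 bp in LncMyod Control. Both LncMyod Knockdown libraries were lower there (log2 difference −0.63, SE 0.27, adjusted p = 0.716).

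**Figure D5:**
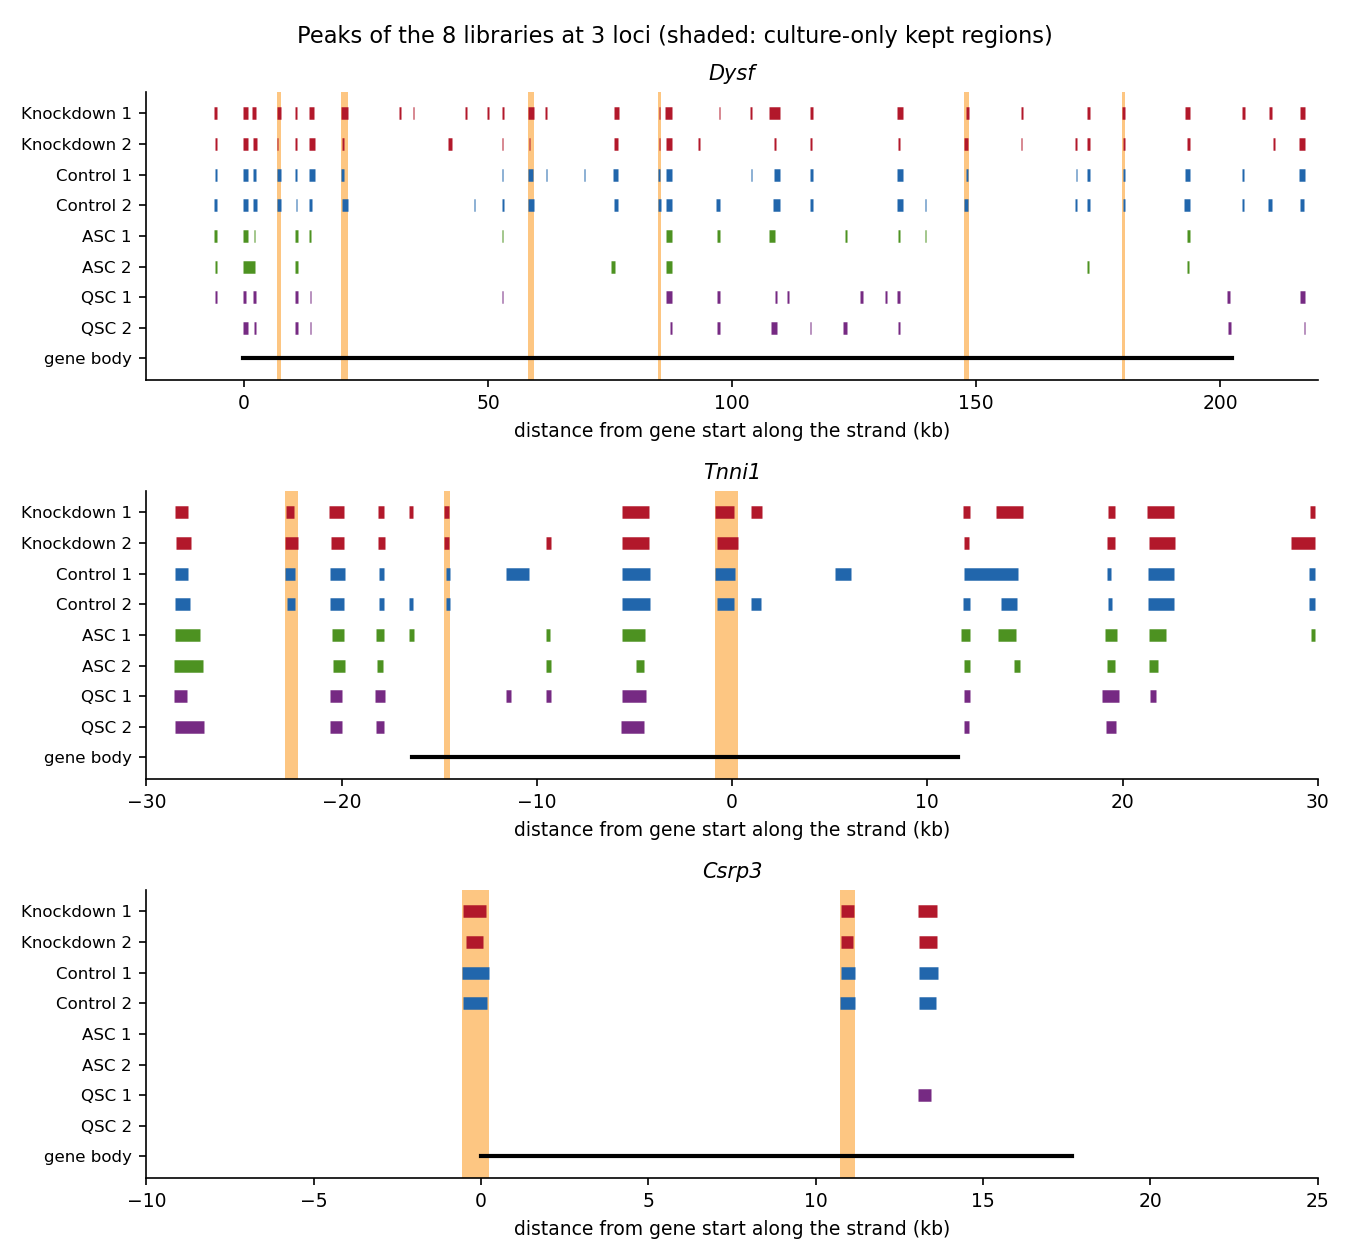
Peaks of the 8 libraries (rows) at Dysf, Tnni1 and Csrp3 against the distance in kb from a gene start along the strand, with the gene body below and members shaded. Dysf has 6 members between peaks shared with ASC and QSC, Tnni1 has 3 with 1 over the start at 0, and at Csrp3 the start and 2 sites inside the gene are covered in the 4 cultured libraries, with 1 of these sites also covered in QSC replicate 1 and so not a member.

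Contractile and sarcomere genes held members at 19 of 49 loci. Among them, Tnni1 and Klhl41, which encodes a sarcomere-associated kelch protein, held 3 each. Neb (nebulin), Mylpf, Tnnt2 (cardiac troponin T), Ldb3 (a Z-disc protein) and Csrp3 held 2 each, and 11 genes held 1. At Csrp3 2 of the 3 regions in the locus were members, and the locus was covered over 1.31 and 1.43 kb in LncMyod Knockdown, 1.78 and 1.63 kb in LncMyod Control, 0 kb in both ASC libraries, and 0.380 and 0 kb in QSC. Klhl41 had 3 of 7 regions, with 3.05 and 2.52 kb in LncMyod Knockdown, 3.15 and 2.62 kb in LncMyod Control, 0.912 and 0.778 kb in ASC and 0 kb in both QSC libraries. Since the rule required peaks in culture and none in ASC or QSC, the height of the cultured values over the isolated ones at these loci is partly its consequence.

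In excitation-contraction coupling 8 of 24 genes held members, led by the junctophilin gene Jph1 with 3. Its strongest (chr1:16961001-16961821) was covered over 770 and 743 bp in LncMyod Knockdown and 788 and 669 bp in LncMyod Control. At the neuromuscular junction 5 of 15 genes held members, with 4 at Colq and 2 at the rapsyn gene Rapsn. A Colq member (chr14:31531308-31533556) was wider in both LncMyod Knockdown libraries, with 1731 and 768 bp, than in LncMyod Control, with 299 and 579 bp (log2 difference 1.04, adjusted p = 0.587). Chrna1, the acetylcholine receptor alpha subunit gene, held 1 member, with 255 and 291 bp in LncMyod Knockdown and 267 and 295 bp in LncMyod Control.

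The dystrophin complex list had members at 7 of 13 loci, with 4 at the syntrophin gene Sntb1 and 3 at the dystrobrevin gene Dtna. A Sntb1 member (chr15:55701076-55702446) was covered over 1222 and 207 bp in LncMyod Knockdown and 1344 and 1368 bp in LncMyod Control, so that replicate 2 of LncMyod Knockdown stood apart (log2 difference −1.15, adjusted p = 0.781). Energy metabolism genes held members at 10 of 17 loci, with 3 at Ppargc1a, which encodes the coactivator PGC-1 alpha of mitochondrial genes. A Ppargc1a member inside the gene (chr5:51730141-51730642) had 399 and 266 bp in LncMyod Knockdown and 427 and 502 bp in LncMyod Control (log2 difference −0.41, adjusted p = 0.642).

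Growth and signalling genes also held members. Igfbp7, which encodes an insulin-like growth factor binding protein, held 3 of 12 regions, and Hmga2, a chromatin protein gene of proliferating myoblasts, held 1 (chr10:120410759-120411343), covered over 585 and 504 bp in LncMyod Knockdown and 508 and 565 bp in LncMyod Control. In the Notch list 8 of 20 genes held members, and Maml3, a coactivator of Notch, held 4. The matrix list had members at 6 of 24 loci, with 3 at the type IV collagen gene Col4a1. The quiescence list had them at 8 of 29, 2 each at Foxo3, Nfia, Nfix and Tenm4 and 1 each at Foxo1, Nfib, Tenm3 and Tcf4. Cell cycle genes with a member were Ccnd2, Cdk6, Rb1, E2f1 and Aurka, of 25 listed.

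Satellite cell and myogenic markers were accessible in every library, while members lay at some of their loci. Pax7, Myf5 and the desmin gene Des held no member. Scaled covered length at Pax7 was 8.42 and 8.94 kb in LncMyod Knockdown, 11.3 and 8.85 kb in LncMyod Control, 12.6 and 11.5 kb in ASC, and 11.0 and 13.0 kb in QSC. At Myod1 it was 2.75 and 3.71 kb in LncMyod Knockdown, 3.35 and 3.45 kb in LncMyod Control, 3.55 and 2.98 kb in ASC, and 2.02 and 2.20 kb in QSC. Markers of other cells held members at 7 of 15 leukocyte loci, among which Itgam held 2, Laptm5 and Tyrobp 1 each, and C1qa, C1qb and C1qc the same one, and at 4 of 13 endothelial, 2 of 15 fibroadipogenic, 1 of 10 adipogenic and 1 of 9 glial loci. Mural and hepatocyte loci held none. The summed scaled length over the 14 leukocyte loci tested was 20.6 and 29.6 kb in LncMyod Knockdown, 26.0 and 26.6 kb in LncMyod Control, 18.7 and 20.2 kb in ASC, and 12.5 and 13.3 kb in QSC. The fibroadipogenic sum was lower in culture, at 27.6 to 30.6 kb in the 4 cultured libraries and 37.4 to 47.0 kb in ASC and QSC. The cultured and isolated ranges overlapped for endothelial (40.2 to 47.0 and 40.3 to 42.8 kb), glial (26.2 to 30.5 and 24.4 to 37.3 kb), mural (28.0 to 31.8 and 29.1 to 34.4 kb) and hepatocyte genes (5.88 to 9.39 and 6.41 to 7.94 kb). Of the leukocyte markers Ptprc, the gene of the pan-leukocyte antigen CD45, was listed at 0 in both LncMyod Knockdown libraries, none was at 0 in both LncMyod Control libraries, C1qb and C1qc were at 0 in both ASC libraries, and 6 were at 0 in both QSC libraries. The part of the leukocyte signal in the members at those loci, and at Mrc1, was not tested. In bulk cells, fewer cells of a type and less open chromatin per cell cannot be told apart.

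Knockdown and control were then compared by covered length within members, which the rule bounds by asking for a peak in all 4 cultured libraries, without setting the direction. Members took up 5.61% and 5.74% of all covered length in LncMyod Knockdown and 6.29% and 6.22% in LncMyod Control. The means were 5.67 ± 0.0925% and 6.25 ± 0.0515% (SD, n = 2 each), a difference of −0.58 percentage points (exact two-sided permutation p = 0.333, the smallest that 2 against 2 can give). With only peaks of −log10 q of at least 5 the shares were 5.70% and 3.23% in LncMyod Knockdown and 6.08% and 5.76% in LncMyod Control, a difference of −1.45 points (exact permutation p = 0.333) in which LncMyod Knockdown replicate 2 stood apart. Without scaling, members were covered over 3.53 and 2.81 Mb in LncMyod Knockdown and 3.23 and 3.19 Mb in LncMyod Control, and the groups overlapped (difference −0.042 Mb, exact permutation p = 1). The total covered length was 63.0 and 49.0 Mb in LncMyod Knockdown, 51.4 and 51.4 Mb in LncMyod Control, 50.3 and 41.7 Mb in ASC, and 49.6 and 46.1 Mb in QSC. Sequencing depth is unknown from the peak lists.

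Inside members the 2 LncMyod Knockdown libraries resembled each other less than either resembled LncMyod Control. The Jaccard index, the length covered in both libraries over that covered in either, was 0.597 between the LncMyod Knockdown libraries and 0.727 between the LncMyod Control libraries. Across the groups it was 0.702 and 0.694 for LncMyod Knockdown replicate 1 and 0.608 and 0.612 for replicate 2. Same-group pairs exceeded the other pairings by 0.00804 on average (exact one-sided permutation p = 0.333, the smallest possible). The lower likeness of the LncMyod Knockdown libraries was not particular to members. Over all peaks their index was 0.522, beside 0.558 to 0.628 across the groups. Inside regions held by all 8 libraries it was 0.776, beside 0.790 to 0.820.

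Region by region, no member had more or less covered length in LncMyod Knockdown at an adjusted p under 0.05 (limma with Benjamini-Hochberg adjustment; 0% of all 84107 regions fitted were called in either direction), and the lowest adjusted p was 0.163. At an unadjusted p under 0.05, 101 members were higher (1.52%, beside 4.6% of all regions) and 223 were lower (3.35%, beside 4.35%). This balance turned without scaling, with 153 members higher (2.3%, beside 5.17%) and 106 lower (1.59%, beside 3.44%). Leaving out a LncMyod Knockdown library leaves 1 in that group, so effect sizes alone are given for those fits. The median log2 difference over members was −0.11 without LncMyod Knockdown replicate 1 (−0.07 over all regions). Without LncMyod Knockdown replicate 2 it was −0.16 (−0.16 over all regions). Both LncMyod Knockdown libraries lay above both LncMyod Control libraries at 456 members (6.84%, beside 9.09% of all regions) and below them at 2702 (40.6%, beside 31.2%). Without scaling the groups were apart at fewer members on the lower side, with 788 above (11.8%, beside 14.2% of all regions) and 1398 below (21%, beside 17.2%). The median log2 difference was −0.13 over members and −0.11 over all regions. Without scaling by total covered length these medians were −0.05 and −0.02, so that part of the downward offset comes with the scaling. With only peaks of −log10 q of at least 5 the medians differed in sign, at −0.20 over 4867 members and 0.07 over all regions, and 389 members were lower at an unadjusted p under 0.05 (7.99%, beside 4.39%) and 51 higher (1.05%, beside 1.21%). A log2 difference within 1 in either direction held for 98.4% of members and 89.4% of all regions fitted, which the requirement of 4 peaks narrows.

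By locus, none of the 5172 genes with a member that were fitted passed the threshold between LncMyod Knockdown and LncMyod Control (limma; 0.022% of all 27248 genes were called higher and 0% lower). The lowest adjusted p among them was 0.0807, and at an unadjusted p under 0.05 249 were higher and 262 lower, against backgrounds of 5.7% and 4.21% of all genes (4.81% and 5.07% of those with a member). Without scaling 333 were higher and 58 lower, against backgrounds of 7.39% and 1.28%. With a cultured library left out, the median log2 difference over genes with a member stayed between −0.071 and −0.050. It was −0.071 without LncMyod Knockdown replicate 2 (−0.074 over all genes) and −0.050 without LncMyod Knockdown replicate 1 (−0.023 over all genes). No gene of the 20 lists was called. The median log2 difference over genes with a member was −0.24 in the contractile list (3 of 19 positive), −0.33 in excitation-contraction coupling (1 of 8), −0.20 in myogenic transcription factors (0 of 10), 0.04 in Igf and Hmga2 genes (5 of 9) and −0.44 in leukocyte markers (3 of 7), the lowest of the lists. Over all 5172 genes it was −0.06, with 38.4% positive, and it was 0.03 without scaling. Neighbouring loci share members, so genes are not independent.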

How the data were processed

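Each library's file was a list of broad peaks. The submitters' processing notes name MACS2 2.1.1, Bowtie2 2.3.2, SAMtools 1.3, Picard 2.9.2, Trimmomatic 0.36, bedtools 2.26.0 and bcl2fastq 2.19 and the build mm10. How they were run is not stated in these notes, so whether reads were shifted for the Tn5 cut is unknown here. Of the columns the authors deposited per peak, the fold enrichment, a ratio, and the −log10 of q were used, and the −log10 of p and the integer score were not. The deposited lists give no read depth.

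Members and gene lists were chosen with earlier results of these data known. Peaks were merged with numpy 2.4.6 (1 bp overlap). Gene positions and promoter windows are RefSeq, GRCm38.p6; chromosome 18 had no window. Of 373 list entries 368 matched a gene. Named genes were the 12 protein-coding genes with most members, listed genes with members (in full from 3), the 10 strongest members, the 3 largest runs, members or genes past a threshold (none), and Pax7, Myf5, Myod1, Myog, Mymk and Des. Covered bp, scaled to the geometric mean of library totals, was fitted as log2(bp + 200) per region on the cultured libraries and log2(bp + 500) per locus on all 8 with limma 3.58.1 (trended prior, at least 200 bp in 2 libraries, adjusted p under 0.05), tested on simulated data. Fold changes on this scale are understated where little is covered. Alternatives covered thresholds, merging, scaling, pseudocounts and left-out libraries. Some genes that the rule names are not reported here.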

Additional observations from a re-analysis of the deposited data

How the results depend on the processing

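Of 77 alternative values, 66 stayed with the reported one. That meant a count within 1.5 times, or 0 where 0 was reported, a share within its 95% interval, or a strength percentile within 1 SD over libraries. The exact tests of 2 against 2 libraries, which cannot pass, stayed in direction. Many of the 66 are fits that called 0 members or genes, as reported, and with few libraries these add little to the tally. A like count need not be a like set: with a −log10 q of 5 in all libraries there were 5555 members, of which 1993 shared bases with the reported ones. The number of members was 1993 when cultured peaks needed a −log10 q of 5, and 6939 to 10734 with 1 library left out, the highest without LncMyod Knockdown replicate 2. The share within 1 kb of a start was 3.73% with that threshold in all libraries and 2.27% from the region centre, and 2.80 to 3.10% with a library left out. The contractile genes with a member numbered 6 with the threshold on cultured peaks, 30 with 50 kb around the gene, and 19 to 26 with a library left out. Between LncMyod Knockdown and LncMyod Control, 72 members passed when all 8 libraries were fitted. Of these, 29 were higher (0.435%, beside 1.65% of all regions) and 43 lower (0.645%, beside 1.36%). By the rule the ASC and QSC libraries in that fit have no covered length in any member, and what this does to the calls was not tested. Among genes with a member, 1 passed without scaling (Ubash3a, of 33 genes called), 1 with 4 times the pseudocount (Prss34, of 10), 2 with peaks of −log10 q of at least 5 (Ly6f and Slc45a2, both lower, of 4 higher and 10 lower), and 2 over the gene body alone (Gm46919 and Oas2, of 41 higher and 9 lower); the cause was not tested. These 6 genes were named after their values were seen. Fits with a library left out hold 1 library in that group, so their calls are not listed. Whether the replicate numbers pair samples is not stated in the labels. The deviations of the replicate 1 libraries correlated at 0.0368 over regions and 0.0235 over loci, which cannot settle this with 2 libraries per group. With a replicate block 0 members and 0 genes with a member passed. Windows of 200 bp and windows at region centres were not run, since they need a genome.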
